A study of Mus musculus with 6 samples.

Results

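The proteasome is the large protease that degrades proteins tagged with ubiquitin. Its genes were compared here between testes of knockout mice and testes of control mice, all taken at postnatal day 15. Members were chosen by symbol: every transcript cluster (a set of probes read as 1 transcribed region) whose single gene symbol begins with Psma, Psmb, Psmc, Psmd, Psme, Psmf or Psmg and a digit, leaving out Psmc3ip, and with the cluster of highest mean kept for each gene. This gave 49 genes out of the 19938 genes with a named cluster on the array. Of these, 48 encode subunits, activators, inhibitors or chaperones of the proteasome, and Psme3ip1 encodes a protein that binds the activator Psme3. The symbol Psme2b occurred only on a cluster shared with Psme2, which was left out.

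The study hybridised total RNA of whole testes to Affymetrix mouse gene arrays, 3 from knockout and 3 from control mice. The groups differ in their labels by genotype alone, and the labels name no treatment. The labels name neither a Cre driver nor a strain, give the controls no genotype beyond that word, and nothing in them says that replicates came from different animals. Tests therefore rest on the scatter of these samples, part of which may be technical. Values are log2 expression as the authors normalised them, and each difference is knockout minus control in those units. The number of arrays limits the precision.

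Proteolysis takes place inside a barrel, the core particle, built of outer alpha rings and inner beta rings, whose beta subunits carry the active sites. A regulatory particle with a ring of ATPases recognises ubiquitin, removes it and feeds the substrate into the barrel. Other activators can cap the barrel instead, and tissues can exchange some subunits: immune signals induce alternative catalytic beta subunits, cells of the thymus cortex use another, and in mouse spermatocytes the alpha subunit Psma8 replaces Psma7, forming, together with the activator Psme4, the proteasome species of the testis.

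The transcripts of the proteasome differed little between knockout and control testes. None of the 49 genes passed an adjusted p of 0.05 in limma with Benjamini-Hochberg adjustment over 21789 clusters, against 0.0138% of all clusters (3 clusters), and the smallest adjusted p among the members was 0.322. At an unadjusted p under 0.05 there were 2 members, Psma8 and Psmg1, which is 4.08% of the members against 10.6% of all clusters. Both were lower in the knockout, as were 6.45% of all clusters at that p, and 0 were higher, against 4.1% of all clusters. The median difference was -0.030 over the members and 0.0033 over all genes. The knockout mean was below the control mean in 29 members (59.2%, against 47% of all clusters) and above it in 20. It was below in 25 members with each array centred on its median, and in 24 without control replicate 1. For 46 of the 49 members (93.9%, against 76.3% of all genes) the 95% interval of the difference lay within 1.2-fold in either direction. The 3 whose interval reached further were Psma8, Psmg1 and Psmd6, named after their values were seen. The members were brighter than most genes, with a median level of 10.71 against 8.52 over all genes. In a list of 17 proteasome partners outside the rule, with a median level of 10.91, all 17 intervals lay within 1.2-fold, so narrow intervals are not particular to the members. The standard deviation between arrays of a group had a median of 0.045 over the members and 0.070 over all genes, and in 24 of the 49 it exceeded the difference itself.

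**Figure D1:**
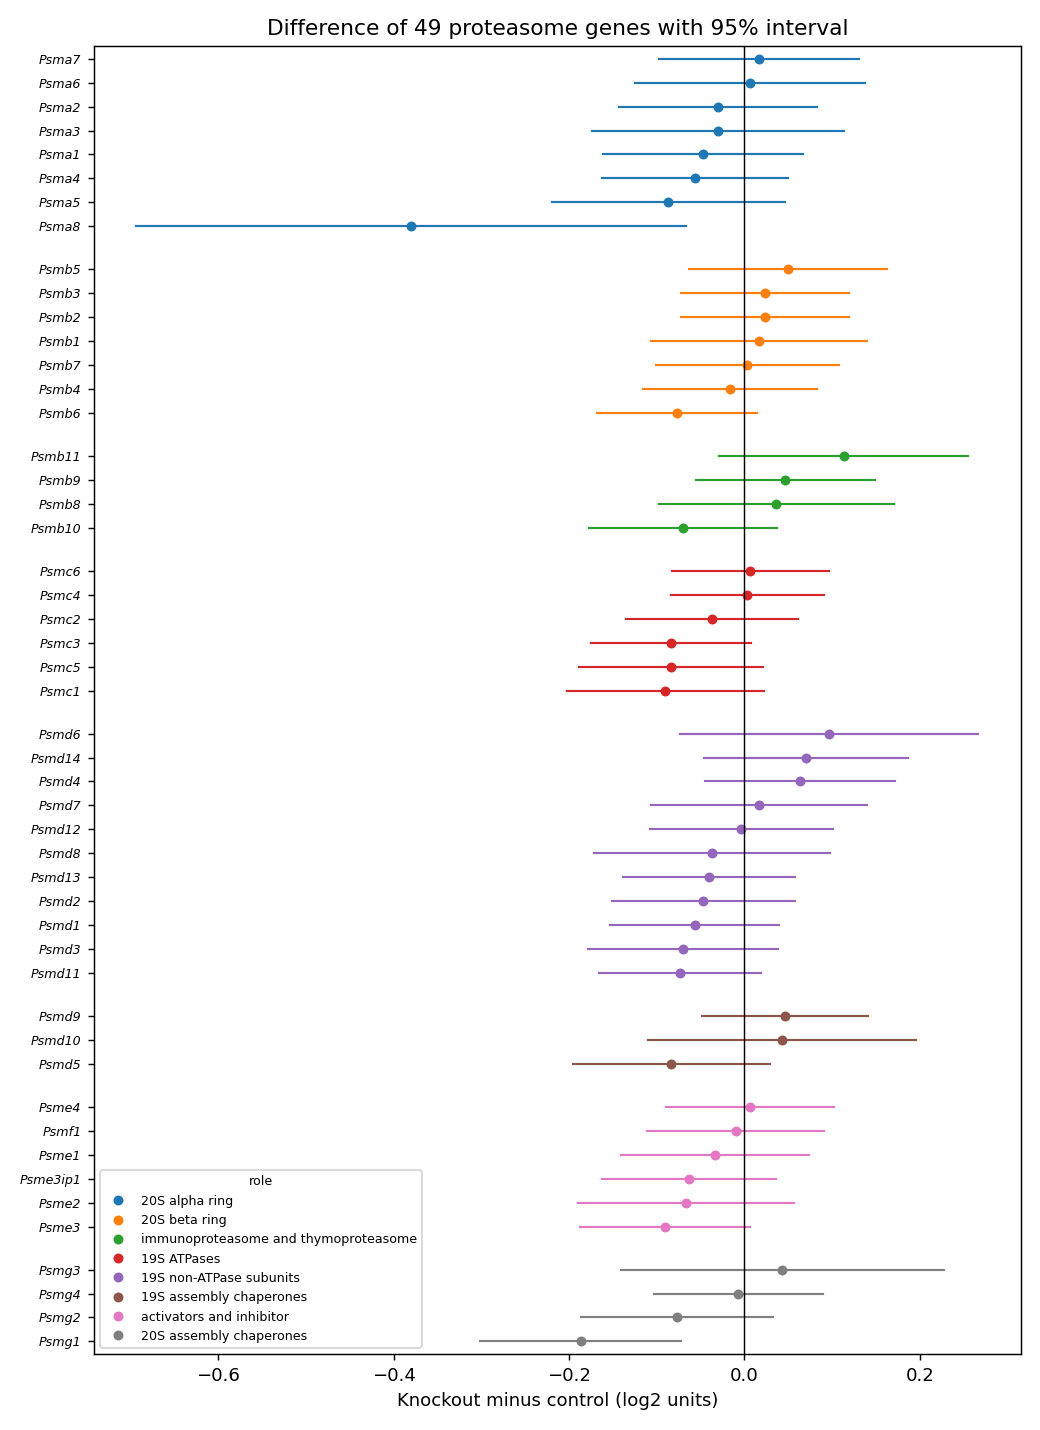
Difference between knockout and control (log2 units, horizontal axis) of each of the 49 genes, grouped and coloured by role, with bars for the 95% interval from limma. All intervals but those of Psma8 and Psmg1 include 0, and Psma8 lies furthest from it at -0.38.

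Psma8, the alpha subunit of the spermatocyte proteasome, had the largest difference of the members. Its values were 9.51, 9.68 and 9.86 in the knockout arrays, against 9.89, 10.34 and 9.96 in the control arrays. All knockout arrays lay below all control arrays, although knockout replicate 3 and control replicate 1 were close together. The difference was -0.38 (SE 0.133, 95% interval -0.69 to -0.067, fold 0.768), with an adjusted p of 0.400 in limma, so it did not pass. It lay between -0.47 and -0.24 over the 12 alternatives, with adjusted p-values of 0.299 to 0.704 in limma. Leaving out knockout replicate 1, knockout replicate 2 or control replicate 2 took the unadjusted value past 0.05. Psma7, the alpha subunit that Psma8 replaces, had values of 10.54, 10.61 and 10.56 in knockout and 10.59, 10.48 and 10.59 in control arrays, a difference of 0.017 (SE 0.048). Within an array, Psma8 minus Psma7 was -0.89 ± 0.17 in knockout and -0.49 ± 0.31 in control testes (SD, n = 3 each). The groups met at -0.70. For the difference of -0.40 an exact permutation test gave a two-sided p of 0.2, and 0.267 after adjustment over 4 pairs of exchangeable subunits. With 3 arrays in each group the smallest p of that test is 0.1, so it could not have passed 0.05 and decides nothing here.

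Markers of pachytene spermatocytes, the cells in which Psma8 is known to act, were read beside it. The 18 markers of that list, all measured, averaged 9.07, 9.11 and 9.29 in the knockout arrays and 9.25, 9.77 and 9.64 in the control arrays. Their median difference was -0.30. The groups overlapped, since control replicate 1 lay below knockout replicate 3. Of the 18, 0 passed an adjusted p of 0.05 in limma (smallest 0.303), 17 had a lower mean in the knockout, against 47% of all clusters, and 12 had an unadjusted p under 0.05, all lower, against 6.45% of all clusters. In 13 of the 18 the groups overlapped. In 5 (27.8%) every knockout array lay below every control array, against 8.6% of all clusters. The arrays stood in the same order within each genotype for Psma8 and for the list: replicates 1, 2 and 3 from low to high in the knockout, and 1, 3 and 2 in the control. Psma8 minus the mean of the list was 0.53 ± 0.071 in knockout and 0.51 ± 0.17 in control arrays (SD, n = 3 each), a difference of 0.017. In RNA of whole testes, fewer spermatocytes and less RNA per spermatocyte cannot be told apart, and the part of the markers in the result was not tested.

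**Figure D2:**
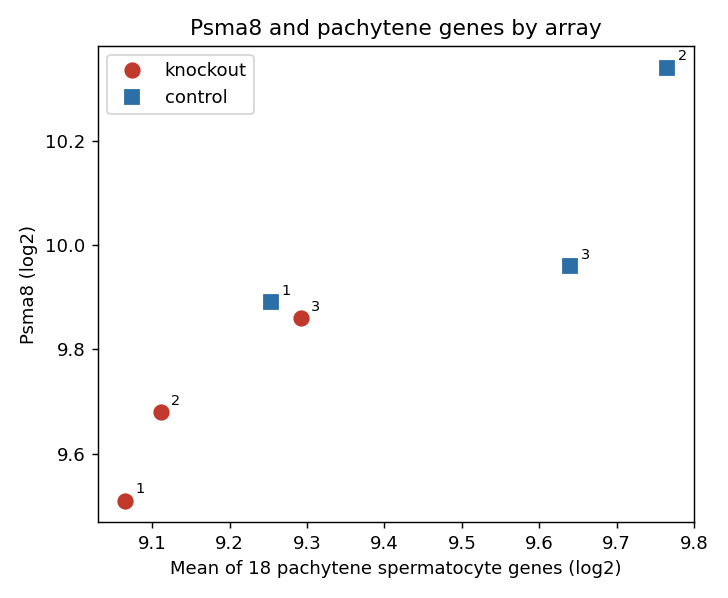
Psma8 (log2, vertical axis) against the mean of 18 pachytene spermatocyte genes (log2, horizontal axis) in the 3 knockout and 3 control arrays, numbered by replicate. Knockout replicate 1 is lowest on both axes and control replicate 2 highest on both.

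Psme4, the activator that caps the barrel and is known in mouse testis for the degradation of acetylated histones, had no such difference. It read 11.27, 11.31 and 11.35 in knockout arrays, against 11.31, 11.30 and 11.30 in control arrays. The groups overlapped and the difference was 0.0067 (SE 0.041, 95% interval -0.089 to 0.10, adjusted p = 0.973 in limma).

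**Figure D3:**
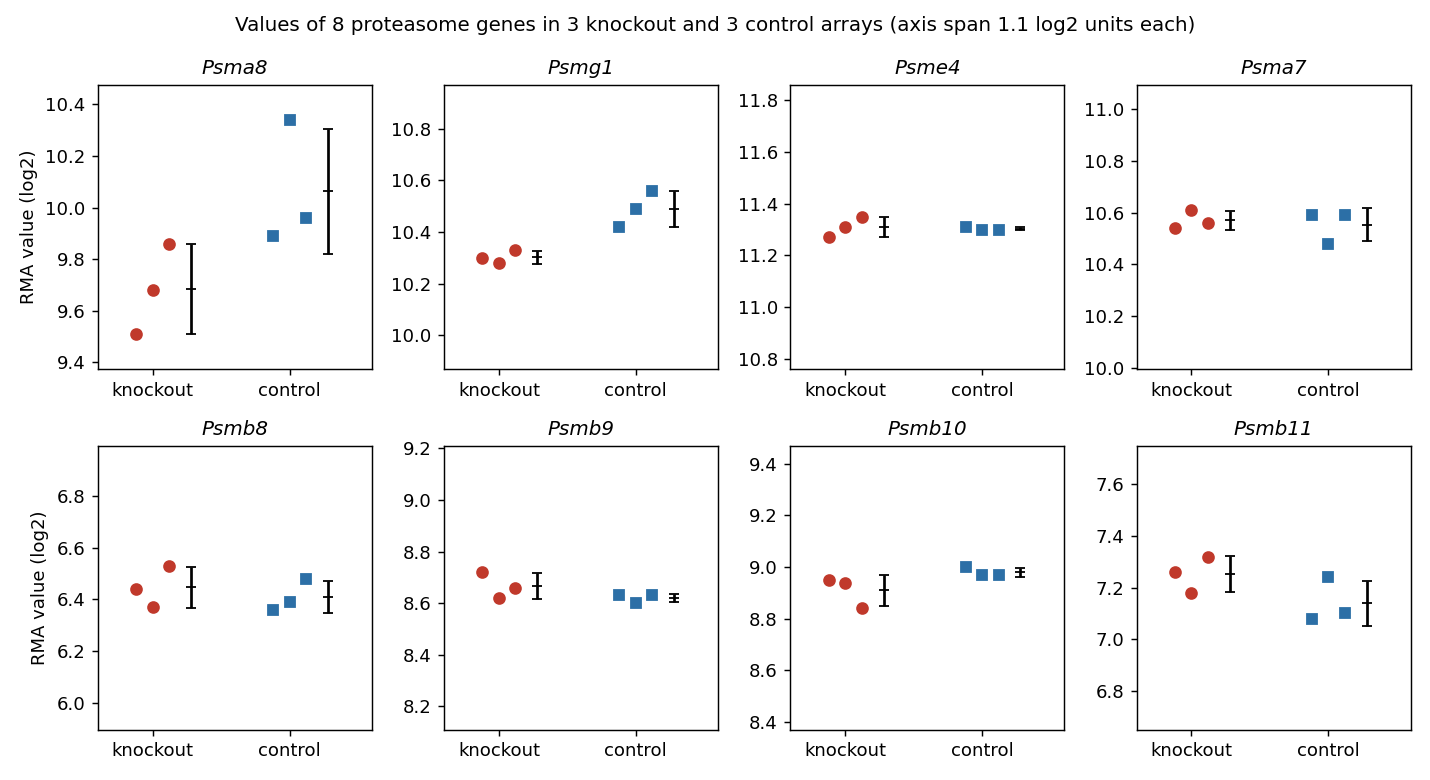
RMA values (log2, vertical axes of equal span) of 8 genes, with 1 point per array and the mean and SD beside each group, knockout left and control right. In Psma8, Psmg1 and Psmb10 every knockout point lies below every control point, while in Psme4, Psma7, Psmb8, Psmb9 and Psmb11 the points overlap.

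The other alpha subunits form the gate of the barrel and had small differences. The 8 alpha genes, Psma8 included, had a median of -0.038, with 6 negative and 2 positive differences and 1 (Psma8) at an unadjusted p under 0.05. Without Psma8 the differences ran from -0.087 for Psma5 to the 0.017 of Psma7. Psma5 had values of 9.93, 9.92 and 10.00 in knockout and 9.99, 10.14 and 9.98 in control arrays, which overlapped, and its second cluster differed by -0.057. The other clusters of Psma3 differed by -0.023 and -0.013, beside -0.030 for the cluster used.

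The beta ring holds the catalytic subunits Psmb5, Psmb6 and Psmb7 beside structural ones. Of its 7 genes, 5 had positive and 2 negative differences (median 0.017), and none had an unadjusted p under 0.05. Psmb5, of the chymotrypsin-like site, had the highest difference of the ring: 12.38, 12.37 and 12.35 in knockout arrays, against 12.31, 12.39 and 12.25 in control arrays, which overlapped (0.050, SE 0.048). Psmb6, of the caspase-like site, had the lowest: 11.20, 11.24 and 11.19 in knockout arrays, against 11.30, 11.28 and 11.28 in control arrays. Its groups did not overlap, but the difference of -0.077 (SE 0.039, adjusted p = 0.537 in limma) did not pass. Psmb7, of the trypsin-like site, differed by 0.0033 (SE 0.044).

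Transcription of proteasome genes is known to rise through the factor NRF1 (gene Nfe2l1) when proteasome activity is short, acting through antioxidant-type elements, and their promoters were read for that motif. The windows come from RefSeq (GRCm38.p6) and run from 250 bases before to 50 bases after the start of a gene. Of the 49 members, 41 matched the table. The 8 without a match were not searched: Psma8, Psmb1, Psmb2, the catalytic Psmb7, Psmc3, Psmd3, Psmd7 and Psmg2. The motif TGACNNNGC occurred on either strand in the windows of 6 of these 41 genes (14.6%), against 13.99% of the 27025 genes in the table. The 6 were Psmb5, Psmb6, Psmc6, Psmd9, Psmd12 and Psme4. The windows of Psmb5 (chr14:54617946-54618245, minus strand), Psmb6 (chr11:70525107-70525406, plus strand) and Psme4 (chr11:30771525-30771824, plus strand) are shown as examples. Psmb5 and Psmb6 were picked for having the highest and the lowest difference of the beta ring, neither of which passed. The part of the motif in these differences was not tested. Capitals mark the motif, which in Psme4 lies on the opposite strand.
Psmb5: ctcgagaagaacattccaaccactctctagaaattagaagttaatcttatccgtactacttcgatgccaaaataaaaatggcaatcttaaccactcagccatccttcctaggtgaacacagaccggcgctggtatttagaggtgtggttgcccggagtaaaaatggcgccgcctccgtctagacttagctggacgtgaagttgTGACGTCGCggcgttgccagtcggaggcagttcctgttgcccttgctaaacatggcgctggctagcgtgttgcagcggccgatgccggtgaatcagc
Psmb6: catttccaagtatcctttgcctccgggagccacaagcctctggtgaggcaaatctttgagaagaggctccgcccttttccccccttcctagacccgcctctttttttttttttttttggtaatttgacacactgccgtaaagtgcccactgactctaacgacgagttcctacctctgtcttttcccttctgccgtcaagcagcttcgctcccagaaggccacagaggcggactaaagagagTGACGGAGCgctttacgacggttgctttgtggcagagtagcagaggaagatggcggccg
Psme4: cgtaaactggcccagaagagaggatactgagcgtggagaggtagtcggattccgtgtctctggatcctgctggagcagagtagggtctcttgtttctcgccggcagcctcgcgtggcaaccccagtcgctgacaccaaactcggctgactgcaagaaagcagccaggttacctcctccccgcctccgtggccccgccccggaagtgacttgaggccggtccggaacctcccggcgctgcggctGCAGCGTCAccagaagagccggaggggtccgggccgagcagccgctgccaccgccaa
The motif begins 47 bases before the start in Psmb5, 9 before it in Psmb6 and 7 before it in Psme4. A match describes the letters and not a bound site. Nfe2l1 itself had values of 11.44, 11.42 and 11.40 in knockout and 11.43, 11.32 and 11.51 in control arrays, which overlapped, with the same mean in each group (SE of the difference 0.056).

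The inducible catalytic subunits of the immunoproteasome and the thymus subunit were next compared. Psmb8 had values of 6.44, 6.37 and 6.53 in knockout and 6.36, 6.39 and 6.48 in control arrays (difference 0.037, SE 0.057). Psmb9 had 8.72, 8.62 and 8.66 in knockout and 8.63, 8.60 and 8.63 in control arrays (0.047, SE 0.043). Psmb10 had 8.95, 8.94 and 8.84 in knockout and 9.00, 8.97 and 8.97 in control arrays (-0.070, SE 0.046). The groups of Psmb8 and Psmb9 overlapped, those of Psmb10 did not, and none of the 3 had an unadjusted p under 0.05. Psmb11, known from the thymus cortex, had the highest difference of all 49 members, with 7.26, 7.18 and 7.32 in knockout and 7.08, 7.24 and 7.10 in control arrays (0.11, SE 0.061, adjusted p = 0.554 in limma). Its groups overlapped. The clusters of Psmb8 and Psmb11 lay below the array medians over all rows, 8.075 to 8.1, and at low levels this normalisation compresses differences.

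Within each array the inducible subunit was also set against the one it replaces. Psmb9 minus Psmb6 was -2.54 ± 0.071 in knockout and -2.67 ± 0.015 in control arrays (SD, n = 3 each), a difference of 0.12, with no overlap. Its exact permutation p of 0.1 (two-sided) is the smallest the design allows, and was 0.267 over the 4 pairs. The same quantity differed by -0.013 for Psmb8 minus Psmb5 (exact permutation p = 1) and by -0.073 for Psmb10 minus Psmb7 (exact permutation p = 0.2). Genes of interferon response and of antigen presentation on MHC class I, which are induced with the immunoproteasome in many tissues, had a median difference of -0.013 over 10 measured genes of a list of 15, of which 3 had positive and 7 negative differences. None of the 10 had an unadjusted p under 0.05. The smallest p-values belonged to the interferon regulatory factor Irf7 (-0.083), the class I light chain B2m (0.050) and the transcription factor Irf1 (-0.047), with adjusted p-values of 0.672, 0.743 and 0.801 in limma. These subunits are also known from macrophages and leukocytes. Of 14 markers of those cells, 13 had positive differences and 1 a negative one, against 10187 positive of all 19938 genes. Their median was 0.13, and 0 passed an adjusted p of 0.05 in limma. At an unadjusted p under 0.05 there were 4 (28.6%), all higher, against 4.1% of all clusters. In 4 every knockout array lay above every control array (28.6%, against 6.73% of all clusters). These markers had means of 8.94, 8.96 and 8.92 in knockout and 8.76, 8.77 and 8.93 in control arrays. Their part in the values of the immunoproteasome genes was not tested.

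The ATPases that unfold the substrate had small differences, with a median of -0.060. Of the 6 genes, 4 had negative differences (66.7%, against 47% of all clusters) and 2 were within 0.0067 above 0. Psmc1 had 10.47, 10.44 and 10.44 in knockout and 10.62, 10.50 and 10.50 in control arrays, a difference of -0.090 (SE 0.048), and -0.087 in its second cluster. Psmc3 had 10.62, 10.63 and 10.65 in knockout and 10.72, 10.74 and 10.69 in control arrays (-0.083, SE 0.039, adjusted p = 0.505 in limma). The groups of Psmc1, Psmc3 and Psmc5 (-0.083, SE 0.045) did not overlap, each lower in the knockout. That was 50% of the 6, against 8.6% of all clusters, and none of the 6 had an unadjusted p under 0.05. Psmc4 and Psmc6 varied least: Psmc6 had 10.70, 10.69 and 10.73 in knockout and 10.71, 10.70 and 10.69 in control arrays.

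The non-ATPase subunits of the regulatory particle, which bind and remove ubiquitin and form its lid, went both ways. Of 11 genes, 7 had negative and 4 positive differences (median -0.037), and none had an unadjusted p under 0.05. Psmd6, a lid subunit, was the highest of the 11, at 11.19, 11.17 and 11.26 in knockout and 11.23, 11.14 and 10.96 in control arrays (0.097, SE 0.072). That difference rested on control replicate 3, without which it was 0.022. Psmd14, the deubiquitinase of the lid, had 11.86, 11.87 and 11.91 in knockout and 11.83, 11.73 and 11.87 in control arrays (0.070, SE 0.049). Psmd4, a ubiquitin receptor, had 10.30, 10.40 and 10.35 in knockout and 10.33, 10.25 and 10.28 in control arrays (0.063, SE 0.046). In these 3 genes the groups overlapped. The lowest was Psmd11, another lid subunit, with 10.71, 10.70 and 10.70 in knockout and 10.81, 10.77 and 10.75 in control arrays (-0.073, SE 0.039). Psmd11 and Psmd1 (-0.057, SE 0.041) had groups that did not overlap (18.2% of the 11, against 8.6% of all clusters in that direction). The base scaffold Psmd2 differed by -0.047 in the cluster used and by -0.070 in its other cluster.

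Assembly chaperones of the regulatory particle were measured with 3 genes. Psmd5 had 10.58, 10.67 and 10.59 in knockout and 10.74, 10.71 and 10.64 in control arrays, which overlapped (-0.083, SE 0.048). Psmd9 had 8.98, 8.94 and 8.97 in knockout and 8.93, 8.94 and 8.88 in control arrays, also overlapping (0.047, SE 0.040). The X-linked Psmd10, gankyrin, differed by 0.043 (SE 0.065).

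Chaperones of the core particle held the member with the smallest p. Psmg1, which pairs with Psmg2 to assemble the alpha ring, had values of 10.30, 10.28 and 10.33 in the knockout arrays, against 10.42, 10.49 and 10.56 in the control arrays. The knockout arrays were tight and all below the control arrays. The difference was -0.19 (SE 0.049, 95% interval -0.30 to -0.072, fold 0.879), with an adjusted p of 0.322 in limma, so it did not pass. By p it stood at place 406 among the 21789 clusters. It kept an unadjusted p under 0.05 under all 12 alternatives, while the difference ranged from -0.22 to -0.15 and the adjusted p from 0.160 to 0.659. The part of the pachytene markers in this difference was not tested. Its partner Psmg2 had 10.32, 10.39 and 10.36 in knockout and 10.37, 10.45 and 10.48 in control arrays, which overlapped (-0.077, SE 0.047, adjusted p = 0.615 in limma). Psmg3 had 7.87, 7.65 and 7.90 in knockout and 7.76, 7.85 and 7.68 in control arrays (0.043, SE 0.078). Its values also lay below the array medians over all rows. Psmg4 differed by -0.0067 (SE 0.041).

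The remaining activators and the inhibitor lay close to the control level. Over these 6 genes, Psme4 and Psme3ip1 included, 5 had negative and 1 a positive difference (median -0.048), and none had an unadjusted p under 0.05. Psme3, the nuclear activator, had 11.87, 11.86 and 11.83 in knockout and 11.97, 11.96 and 11.90 in control arrays. Its groups did not overlap (-0.090, SE 0.041, adjusted p = 0.497 in limma). Its binding partner Psme3ip1 also had separate groups (-0.063, SE 0.042). Together they made 33.3% of these 6 genes, against 8.6% of all clusters in that direction. Psme1 and Psme2, the interferon-inducible activator subunits, differed by -0.033 (SE 0.045) and -0.067 (SE 0.052), and the inhibitor Psmf1 by -0.010 (SE 0.043).

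With the values as deposited, arrays of the genotypes were fully separated in a larger share of the members (22.4%) than of all clusters (15.3%). In 11 of the 49 members (22.4%) every knockout array lay below every control array, against 8.6% of all clusters, and in 0 of 49 every knockout array lay above, against 6.73% of all clusters. The 11 were Psma8, Psmb6, Psmb10, Psmc1, Psmc3, Psmc5, Psmd1, Psmd11, Psme3, Psme3ip1 and Psmg1. Apart from Psma8 and Psmg1 their differences were between -0.090 and -0.057. When each array was centred on its median the count was 5 lower and 3 higher (10.2% and 6.12% of the members, against 5.76% and 11.1% of all clusters). That centring used the medians of the 21789 clusters with 1 symbol, and the members' median difference went from -0.030 to -0.010. Over all 35556 rows, a wider set than was centred, the array medians spanned 8.075 to 8.1. By array, the median deviation of the members from the control mean was -0.030, -0.020 and -0.017 in knockout replicates 1, 2 and 3, and 0.020, -0.0033 and -0.017 in control replicates 1, 2 and 3. Control replicate 1 held the highest value of 18 members, the most of any array, and without it the median difference of the members was 0.0017. Pachytene markers were lowest of the control arrays in that same array, at a median deviation of -0.24, and its part in the members' values was not tested.

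**Figure D4:**
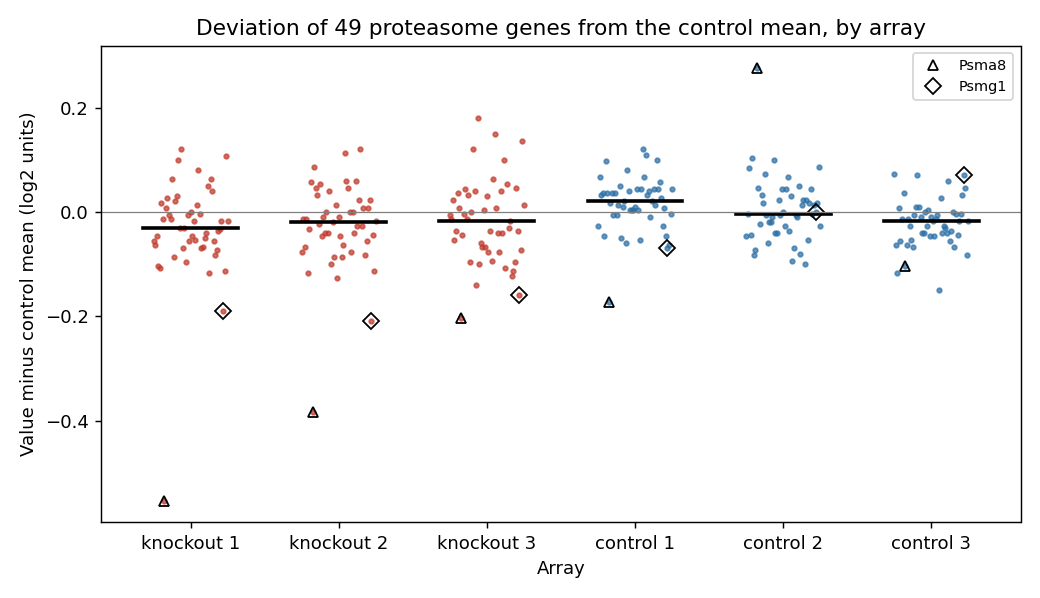
Value minus control mean (log2 units) of each of the 49 genes in each array, knockout in red and control in blue, with a black bar at the median of the array and open symbols for Psma8 and Psmg1. The medians lie within 0.030 of 0 in all 6 arrays, and Psma8 spreads more between the arrays of a group than the other members.

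Partners of the proteasome whose symbols lie outside the rule were read from a list of 26, of which 17 were measured. None passed over all clusters. Their median was -0.023, with 4 positive and 11 negative differences and 2 pairs of equal means. Uchl5, a deubiquitinase bound to the regulatory particle, had the smallest p, with 9.35, 9.35 and 9.41 in knockout and 9.46, 9.54 and 9.52 in control arrays. Its groups did not overlap (-0.14, SE 0.044, adjusted p = 0.376 in limma), and it was the 1 member of the list at an unadjusted p under 0.05. The shuttle factor Ubqln2 differed by 0.11 (SE 0.058) and Akirin2, which brings proteasomes into the nucleus, by -0.080 (SE 0.044). Pomp, the maturation factor of the core particle, had 10.28, 10.24 and 10.23 in knockout and 10.42, 10.29 and 10.29 in control arrays (-0.083, SE 0.050).

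Markers of the testis cell types were read on all arrays. Not measured were Syce3 and Six6os1 of the synapsis and axis list, Rhox5 of the Sertoli list, and Insl3 and Lhcgr of the Leydig list. Values above the median gene were found for 12 of 12 genes of the synaptonemal complex and chromosome axis, 13 of 13 Sertoli cell genes, 6 of 6 Leydig cell genes, 12 of 18 pachytene genes, 10 of 13 genes of undifferentiated spermatogonia, 11 of 14 macrophage and leukocyte genes and 3 of 8 endothelial genes. The median difference was -0.063 for synapsis genes, 0.073 for Sertoli, 0.28 for Leydig, -0.083 for undifferentiated spermatogonia and -0.013 for endothelium. Some of these lists went both ways. The spermatogonial list had 6 positive and 7 negative differences, with 4 higher and 3 lower at an unadjusted p under 0.05 in limma (53.8% of the list). The Leydig list had 5 positive and 1 negative, with 2 higher and 1 lower at that p (50%). The synapsis list had 2 positive and 10 negative, with 0 higher and 3 lower at that p (25%). The Sertoli list had 10 positive and 3 negative, with 1 higher and 0 lower at that p (7.69%). The endothelial list had 3 positive and 5 negative, with 0 at that p. Of all clusters 10.6% were at that p, 4.1% higher and 6.45% lower. The part of these markers in the small differences of the proteasome genes was not tested.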

How the data were processed

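RNA of 3 knockout and 3 control testes was measured on Affymetrix Mouse Gene 1.0 ST arrays. The deposited table holds log2 values, which the authors made with RMA in Affymetrix Expression Console, per the submitters' processing notes. Their versions are not stated, and a genome build is not given in the sources used here. RMA gives the arrays 1 distribution, so a shift of all transcripts would not be seen. No detection calls, scanner files or scan dates were used. The targeted gene is not reported here.

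Arrays were grouped by the genotype in their titles. Clusters with 1 symbol in the platform annotation, 21789 of 35556 rows, were compared with limma 3.58.1 in R 4.3.3 by lmFit and eBayes. There were no covariates and no filter on low values, and p-values were adjusted after Benjamini-Hochberg. Symbols outside the member rule were updated through the RefSeq gene table, where 21698 clusters matched. The procedure was tested on simulated data. Described with every value are genes of known restricted use (Psma8, Psme4, Psmb8 to Psmb11), up to 6 members with the smallest p in each direction and the extremes of each role, with a few related genes beside them (Psma5, Psmg2, Nfe2l1, Pomp) chosen after their values were seen. Members and lists were chosen with earlier results of these data known. Alternatives were a replicate block, an intensity trend with robust prior, median centring, dim clusters left out, all rows, the mean of a gene's clusters, and each array left out. Protein sequences were not used here.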

Additional observations from a re-analysis of the deposited data

How the results depend on the processing

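No member passed an adjusted p of 0.05 under any of the 12 alternatives, so no call could turn. Of 587 values of single members under the alternatives, 30 in 18 genes had the other sign or equal group means, none of them past the threshold. The count of members at an unadjusted p under 0.05 in limma was 2 with all arrays. It was 5 with an intensity trend and robust prior, where 11.7% of all clusters were at that p. With 1 array left out it was 1 to 3, where 7.22% to 10.9% of all clusters were at that p. The members' median of -0.030 was -0.010 with arrays centred on their medians, and between -0.037 and 0.0017 when 1 array was left out (0.0017 without control replicate 1). The 11 members whose knockout arrays all lay below the control arrays were 5 with centring and 12 to 18 with 1 array left out (18 without control replicate 3), against 12.1% to 14.3% of all clusters in those leave-outs, where fewer arrays make separation easier. Members with all knockout arrays above, 0 with all arrays, were 3 with centring (6.12%, against 11.1% of all clusters). With 1 array left out they were 0 to 4 (4, or 8.16%, without knockout replicate 2), against 10.5% to 13.1% of all clusters. Over all clusters the 3 calls were 0 with the replicate block or with all rows tested, 7 with the trend and robust prior, and between 0 and 52 with 1 array left out (52 without control replicate 1). Same-numbered arrays had correlations of their deviations of 0.17, -0.054 and 0.17, against -0.23 to 0.084 for arrays of different numbers. Both values of 0.17 were thus the highest, but not every array correlated best with its own number. The numbers were not taken to pair the samples. With the replicate block 2 members had an unadjusted p under 0.05, as without it. Dim clusters were those below the 0.25 quantile of mean level. Psmb8 was not kept when they were left out, while Psmb11 was kept. Signal over background was not known.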
